A study of Homo sapiens with 6 samples.

Results

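The RUNX1-RUNX1T1 fusion and the proteins that bind DNA with it were followed through 10 genes: RUNX1, RUNX1T1, CBFB, TCF12, TCF3, LYL1, LMO2, LDB1, ERG and FLI1. They were chosen by name, as the fused genes and the partners of the complex, with earlier results of these data known. Every probe set whose platform annotation names one of them was taken. This gave 55 of the 54613 probe sets that are not controls, for 10 of 19776 annotated genes. RNA came from Kasumi-1, a human acute myeloid leukaemia cell line with the t(8;21) translocation, cultured for 24 h with vehicle (3 arrays) or with 20 nM homoharringtonine (HHT, 3 arrays). Both groups carry the translocation, and all arrays come from this 1 line. HHT is an alkaloid drug that stops protein synthesis at the ribosome, and the study's title asks about its effect on MYC transcription. The labels do not say whether a group's arrays are separate cultures. The p-values therefore cover only the spread among these 6 arrays, which may be technical.

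RUNX1 is a transcription factor of blood cells that binds DNA as a pair with CBFB, a partner that does not touch DNA itself. The t(8;21) translocation joins the DNA-binding part of RUNX1 to nearly all of RUNX1T1 (ETO), a protein that recruits corepressors, and the fused gene is read from RUNX1's promoters. On chromatin the fusion works in a complex with the E-proteins TCF12 (HEB) and TCF3 (E2A), the helix-loop-helix factor LYL1, the bridging proteins LMO2 and LDB1, and the ETS factors ERG and FLI1. A fusion transcript holds the first part of RUNX1 and the last part of RUNX1T1, and 3' arrays read mostly the end of a transcript. Which probe set meets the fused and which an unfused transcript is not given in the annotation used here and was not tested.

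Promoter sequences are shown for the gene that drives the fusion and for members that moved in opposite directions. The search used 13 entries of RefSeq's table for GRCh38.p14, for 6 of the members (RUNX1, TCF12, TCF3, LYL1, LDB1 and ERG). The chromosome of RUNX1T1 was left out of it. The 250 bases before the start are printed for 5 of them, with matches to short motifs in capitals. The motifs were TGTGGT and TGCGGT for RUNX factors, CAGGTG and CAGCTG for E-proteins, CCGGAA for ETS factors, and AGATAA and TGATAA for GATA factors, each searched on both strands.
RUNX1, chr21:34888700-34888949, minus strand: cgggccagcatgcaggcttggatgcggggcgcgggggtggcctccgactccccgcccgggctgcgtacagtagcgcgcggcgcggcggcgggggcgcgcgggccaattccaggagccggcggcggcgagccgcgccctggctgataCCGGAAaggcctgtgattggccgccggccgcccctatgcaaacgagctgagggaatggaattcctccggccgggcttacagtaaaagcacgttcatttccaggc
TCF3, chr19:1652616-1652865, minus strand: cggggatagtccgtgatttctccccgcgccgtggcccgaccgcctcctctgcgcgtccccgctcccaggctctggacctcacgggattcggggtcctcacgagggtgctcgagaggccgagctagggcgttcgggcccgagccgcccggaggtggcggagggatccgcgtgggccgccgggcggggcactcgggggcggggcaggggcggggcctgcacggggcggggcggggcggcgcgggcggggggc
LYL1, chr19:13102859-13103108, minus strand: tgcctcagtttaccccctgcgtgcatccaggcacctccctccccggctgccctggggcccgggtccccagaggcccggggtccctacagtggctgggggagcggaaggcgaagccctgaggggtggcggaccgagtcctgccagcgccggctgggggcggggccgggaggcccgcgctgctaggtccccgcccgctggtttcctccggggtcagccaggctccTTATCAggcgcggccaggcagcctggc
ERG start 1, chr21:38660668-38660917, minus strand: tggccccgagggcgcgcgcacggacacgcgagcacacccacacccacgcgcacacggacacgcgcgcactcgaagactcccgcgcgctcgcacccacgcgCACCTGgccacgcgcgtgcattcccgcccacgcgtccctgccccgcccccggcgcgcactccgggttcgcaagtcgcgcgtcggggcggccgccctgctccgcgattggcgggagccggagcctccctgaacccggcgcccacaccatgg
ERG start 3, chr21:38498505-38498754, minus strand: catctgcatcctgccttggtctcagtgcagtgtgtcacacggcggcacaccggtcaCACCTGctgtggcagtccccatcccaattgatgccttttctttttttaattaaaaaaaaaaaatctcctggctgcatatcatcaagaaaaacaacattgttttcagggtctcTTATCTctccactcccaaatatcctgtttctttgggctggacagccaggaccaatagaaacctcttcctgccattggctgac
The RUNX1 stretch held 1 CCGGAA, a sequence found in 14.5% of 34788 stretches of this length. LYL1 had 1 TGATAA (6.68% of all stretches), read on the other strand. In ERG, CAGGTG (17.5% of all stretches) occurred once at each of the starts shown, on the other strand, and AGATAA (9.21%) once at start 3, on the other strand. TCF3 had none of the 7 motifs. Neither RUNX motif, TGTGGT (11.0% of all stretches) or TGCGGT (5.83%), was found in any of the 13 entries. A match describes these letters only, and a missing match covers only this window.

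The RNA signals of the members did not all move 1 way in HHT, and no protein was measured. By brightest probe sets 29.6% of all genes rose and 24.2% fell, so mixed directions are not particular to the members. TCF3, LMO2 and ERG were clearly lower, with folds of 2.39, 1.91 and 1.92 by their brightest probe sets. The brightest probe sets of TCF12, LYL1 and FLI1 were higher, with folds of 1.53, 1.35 and 1.21. For TCF12 the 3 other probe sets fell and the mean of all 4 was lower (-0.44, adjusted p = 0.00904), and for FLI1 the mean was not called (0.17, adjusted p = 0.390), so that averaging left 1 member gene higher. By the brightest probe sets RUNX1 was 1.15-fold and CBFB 1.17-fold lower, changes whose sign turned with equal medians and with the controls made equal, and RUNX1T1 was not called. For each fused gene 1 dimmer probe set fell further. RUNX1 210365_at fell by 2.09-fold. RUNX1T1 1564642_at fell by 2.34-fold with HHT values under the filter level raised to it. The HHT mean of 1564642_at lies below the filter level, and its call was lost in some alternative fits. Of the tested probe sets, 7 of RUNX1 and 6 of RUNX1T1 were not called. LDB1 was not called by its brightest probe set, and a dimmer one rose.

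Values are log2 signals as deposited. A probe set is a group of short oligonucleotides for 1 transcript end, and it was called when its adjusted p from limma was under 0.05. The 40% of probe sets with the lowest mean, below a level of 4.80, were not tested. Of the 55 member probe sets 46 passed this filter, and 5 rose, 21 fell and 20 were not called, where 46.3% of all 32768 tested probe sets were called (23.0% higher and 23.3% lower). By the brightest probe set, 3 of the 10 genes rose, 5 fell and 2 were not called, where 53.8% of 13573 genes were called. The groups did not overlap in 28 of the 46 tested member probe sets, with HHT above vehicle in 5 and below it in 23, where 55.9% of all tested probe sets had no overlap in either direction. The median change of the 10 was -0.11, and that of all genes -9.07e-05. The split depended on the scaling: 8 member probe sets rose and 13 fell with equal array medians, and 10 rose and 13 fell with equal hybridisation controls. Of all tested probe sets, 42.5% and 45.7% were called under these scalings, in that order. These scalings move every change up by 0.24 and 0.28. Without vehicle replicate 2 or HHT replicate 3, 3 member probe sets rose, and without vehicle replicate 1 or HHT replicate 3, 3 genes fell by their brightest probe set. Without vehicle replicate 1, vehicle replicate 2 and HHT replicate 3 in turn, 43.0%, 42.6% and 41.0% of all tested probe sets were called.

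Array medians lay between 5.82 and 5.96 in vehicle and between 5.53 and 5.77 in HHT. The 18 probe sets for spiked hybridisation controls had a mean of 11.98 ± 0.0282 (SD, n = 3) in vehicle and 11.70 ± 0.0598 (SD, n = 3) in HHT. Their part in small member changes was not tested beyond the scalings given beside them. Of the myeloid blast markers, KIT, MPO, CD34 and ANPEP lay above 4.80 in both groups, while CD38 averaged 3.50 and 4.22, and the log2 of the summed signals of the 5 markers ran from 15.58 to 15.77 in vehicle and from 14.61 to 14.74 in HHT. Among markers of other cell types, EPCAM was high (13.69 ± 0.0216 in vehicle and 12.93 ± 0.0807 in HHT), with CDH1 and KRT19 at means of 4.91 or less. CD3D was also high (11.62 ± 0.0197 and 11.76 ± 0.107), while CD3G averaged 4.19 and 3.56. For the whole lists, the log2 summed signal was 13.67 to 13.71 in vehicle and 12.86 to 13.02 in HHT for 3 epithelial markers (1 above 4.80 in both groups). It was 11.67 to 11.72 and 11.73 to 11.96 for 5 T cell markers (3 above), and 9.34 to 9.51 and 9.97 to 10.16 for 3 B cell markers (3 above). No marker was at 0 on all arrays, and the part of these signals in the results was not tested.

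**Figure D1:**
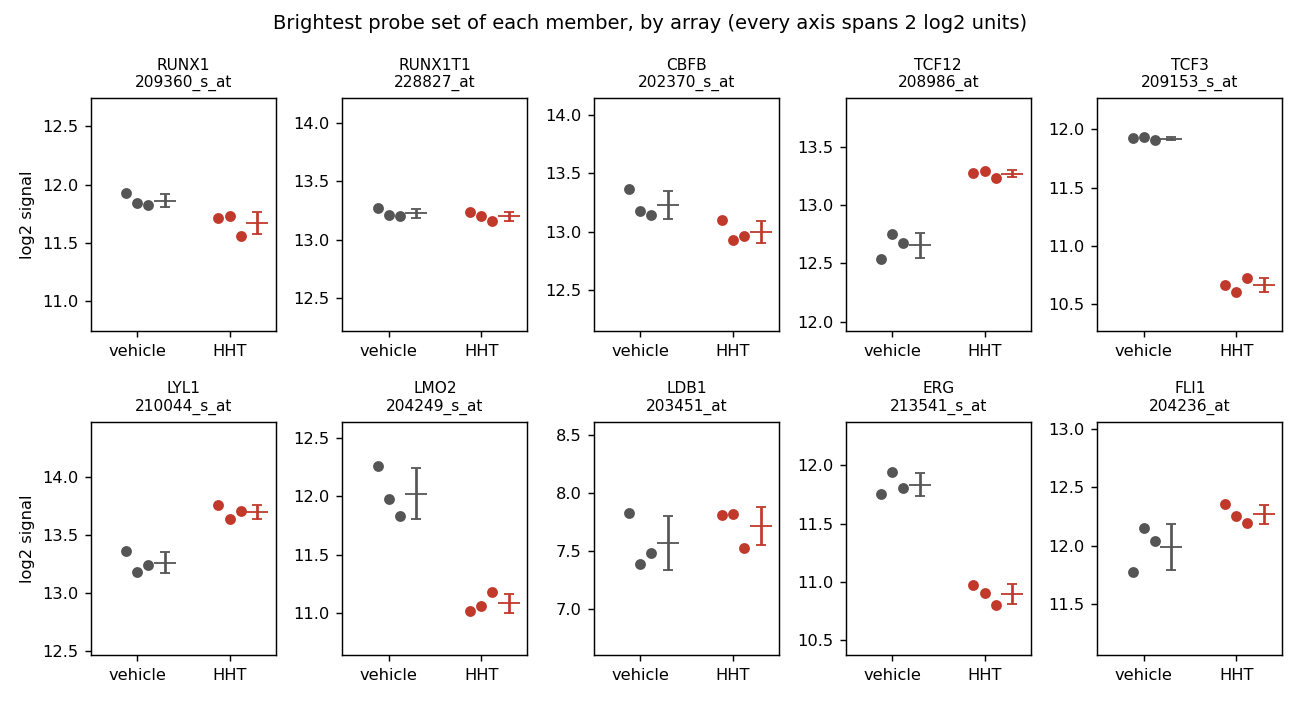
Log2 signal of the brightest probe set of each of the 10 genes on the 3 vehicle arrays (grey) and the 3 HHT arrays (red), with each group's mean and SD beside the points. TCF3, LMO2 and ERG lie lower on all HHT arrays, TCF12, LYL1 and FLI1 lie higher, and RUNX1T1 and LDB1 overlap.

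RUNX1T1, the fused corepressor gene, kept a near equal signal by its brightest probe sets. The brightest, 228827_at, read 13.27, 13.21 and 13.20 on the vehicle arrays and 13.23, 13.20 and 13.16 on the HHT arrays. These groups overlap, and the change of -0.03 (SE 0.0510, adjusted p = 0.679) had a 95% interval of -0.14 to 0.085. With equal hybridisation controls the same probe set was called higher, at 0.26 (adjusted p = 0.00842), and so it was after quantile normalization, at 0.23 (adjusted p = 0.00166). In a bulk sample, fewer cells with a transcript and less of it per cell cannot be told apart.

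The other bright RUNX1T1 probe sets did not point 1 way. 205529_s_at read 12.90, 12.99 and 13.11 in vehicle against 12.92, 12.93 and 12.91 in HHT, a change of -0.08 (adjusted p = 0.338). 205528_s_at read 12.18, 12.49 and 12.61 against 12.53, 12.75 and 12.67, a change of 0.22 (adjusted p = 0.105). Both overlap between the groups. The second was called without vehicle replicate 3 (0.31, adjusted p = 0.0285) and under the 3 other scalings (0.34 to 0.50). 216831_s_at was at 9.77, 9.49 and 9.77 in vehicle and 9.66, 10.15 and 10.36 in HHT, a change of 0.38 (adjusted p = 0.0780) that was called at 0.58 without HHT replicate 1 (adjusted p = 0.00331).

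Among the dim RUNX1T1 probe sets, 1 fell. Its signal (1564642_at) was 6.28, 6.76 and 5.89 in vehicle and 5.26, 5.19 and 3.88 in HHT, without overlap. The HHT mean of 4.78 lies below the filter level, and the probe set passed the filter through the vehicle arrays (mean 6.31). The measured change was -1.53 (95% interval -2.60 to -0.46, adjusted p = 0.0232). With HHT values under the filter level raised to it, the fall was 2.34-fold. Leaving out vehicle replicate 1, vehicle replicate 2 or HHT replicate 3 ended the call (adjusted p from 0.0546 to 0.0952) as did equal hybridisation controls (adjusted p = 0.0595). 242845_at did not overlap either, at 6.53 to 7.21 in vehicle and 5.97 to 6.29 in HHT, and was not called at -0.70 (adjusted p = 0.0630). 216832_at differed by -0.01. The dim and the bright probe sets of RUNX1T1 thus gave different readings of the same gene.

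RUNX1 was read through 13 probe sets, each annotated to RUNX1 together with LOC100506403 and LOC101928269, and none names RUNX1 alone. A signal from those transcripts cannot be told apart from RUNX1 here. The brightest, 209360_s_at, read 11.93, 11.84 and 11.82 in vehicle and 11.71, 11.73 and 11.56 in HHT. All 3 HHT arrays lie below all 3 vehicle arrays, by a small step of -0.20 (SE 0.0679, 95% interval -0.35 to -0.045, adjusted p = 0.0363). The call ended when vehicle replicate 1, vehicle replicate 2, HHT replicate 1 or HHT replicate 3 was left out (-0.22 to -0.14, adjusted p from 0.05 to 0.145). It also ended with no filter (adjusted p = 0.0559) and without a variance trend (adjusted p = 0.134), and the sign turned with equal medians (0.04) and equal hybridisation controls (0.09).

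A second RUNX1 probe set fell further. 210365_at read 8.76, 9.09 and 8.55 in vehicle and 8.01, 7.44 and 7.77 in HHT, a change of -1.06 (SE 0.185, adjusted p = 0.000749) or 2.09-fold lower. It was called in every alternative fit, and its change was -0.82 and -0.78 under the equal-median and equal-control scalings. The other 7 tested RUNX1 probe sets were not called and ran from -0.82 (217263_x_at, adjusted p = 0.189) to 0.44 (211182_x_at, adjusted p = 0.169). All of these carry the suffix _x_at, which the maker gives to probe sets that may also match other sequences. The 4 untested RUNX1 probe sets lay between 0 and 4.83 on all arrays.

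CBFB, the partner that strengthens RUNX1's hold on DNA, fell slightly as deposited. Its bright probe set, 202370_s_at, read 13.36, 13.18 and 13.14 in vehicle and 13.10, 12.93 and 12.96 in HHT. The groups lie close but apart, with a change of -0.23 (SE 0.0716, adjusted p = 0.0222). It was not called without vehicle replicate 1 or HHT replicate 2 or 3 (-0.21 to -0.16, adjusted p from 0.0534 to 0.0939) or without a variance trend (adjusted p = 0.125), and it was 0.01, 0.05 and 0.01 under the other 3 scalings. The dimmer 206788_s_at, at 7.45 to 8.67 in vehicle and 7.31 to 7.93 in HHT, differed by -0.35 (adjusted p = 0.349).

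The 2 E-proteins, which bind E-box DNA as dimers, went opposite ways by their brightest probe sets. TCF3 had the largest fall among the members by that measure. 209153_s_at read 11.92, 11.93 and 11.91 in vehicle and 10.66, 10.61 and 10.73 in HHT. The vehicle arrays were nearly equal and all HHT arrays lay over 1 log2 unit lower, a change of -1.26 (SE 0.0632, adjusted p = 1.60e-07). Of 14 TCF3 probe sets 11 were tested, and 8 of these fell and 3 were not called.

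The next 4 TCF3 probe sets by level each fell by more than 1. 213811_x_at read 11.69, 11.75 and 11.84 in vehicle and 10.71, 10.61 and 10.72 in HHT, and changed by -1.08 (adjusted p = 6.55e-07). 210776_x_at went from 11.58, 11.73 and 11.52 to 10.61, 10.51 and 10.45, a change of -1.09 (adjusted p = 1.45e-06). The groups are well apart in both. 213730_x_at read 10.56, 10.82 and 10.46 in vehicle and 8.99, 9.19 and 9.26 in HHT, a change of -1.47 (SE 0.114, adjusted p = 2.36e-06). 209152_s_at read 9.02, 9.43 and 9.59 against 8.08, 8.14 and 8.18, a change of -1.21 (SE 0.149, adjusted p = 6.27e-05). All 5 were called in every alternative fit, the smallest change among the 3 other scalings being -0.80.

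Dimmer TCF3 probe sets were less certain. 202648_at (-0.60), 215260_s_at (-0.76) and 209151_x_at (-1.16) fell with adjusted p values of 0.0227, 0.0216 and 0.0385. Each of these calls was lost under the equal-median and the equal-control scaling, and when any of certain arrays was left out, vehicle replicate 3 and HHT replicates 2 and 3 for the first, vehicle replicates 1 and 2 and HHT replicates 1 and 2 for the second, and every array but HHT replicate 1 for the third (-1.17 to -0.46, adjusted p from 0.0571 to 0.118). 228052_x_at was lower on all HHT arrays and not called at -0.68 (adjusted p = 0.174), 216645_at was at 0.60 (adjusted p = 0.362) and 216647_at at -0.63 (adjusted p = 0.565). The 3 untested ones spread from 1.57 to 6.35.

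TCF12, the other E-protein of the complex, was split between its own probe sets. The brightest, 208986_at, read 12.54, 12.75 and 12.68 in vehicle and 13.28, 13.30 and 13.23 in HHT. All HHT arrays were higher, by 0.61 (SE 0.0628, adjusted p = 1.71e-05). In contrast 238041_at fell, from 10.06, 10.16 and 10.04 to 9.52, 9.40 and 9.47, a change of -0.62 (SE 0.0846, adjusted p = 0.000130). Both calls held under the other scalings and without any 1 array, so these probe sets report opposite changes for 1 gene name.

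The remaining TCF12 probe sets were lower. 215611_at read 8.09, 6.73 and 7.28 in vehicle and 6.65, 6.58 and 5.82 in HHT, a change of -1.01 (adjusted p = 0.0388), with the call lost if vehicle replicate 1, vehicle replicate 3, HHT replicate 2 or HHT replicate 3 was dropped (-1.13 to -0.65, adjusted p up to 0.152). 233678_at read 6.95, 6.64 and 7.21 against 6.03, 6.39 and 6.16, a change of -0.74 (adjusted p = 0.0355), with the call lost if vehicle replicate 1, vehicle replicate 3, HHT replicate 1 or HHT replicate 3 was dropped (-0.73 to -0.60, adjusted p up to 0.124). The mean of all 4 TCF12 probe sets was lower in HHT, at -0.44 (adjusted p = 0.00904). The direction given for TCF12 therefore rests on which probe set stands for the gene, and the transcripts behind them are not given in the annotation used here.

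**Figure D2:**
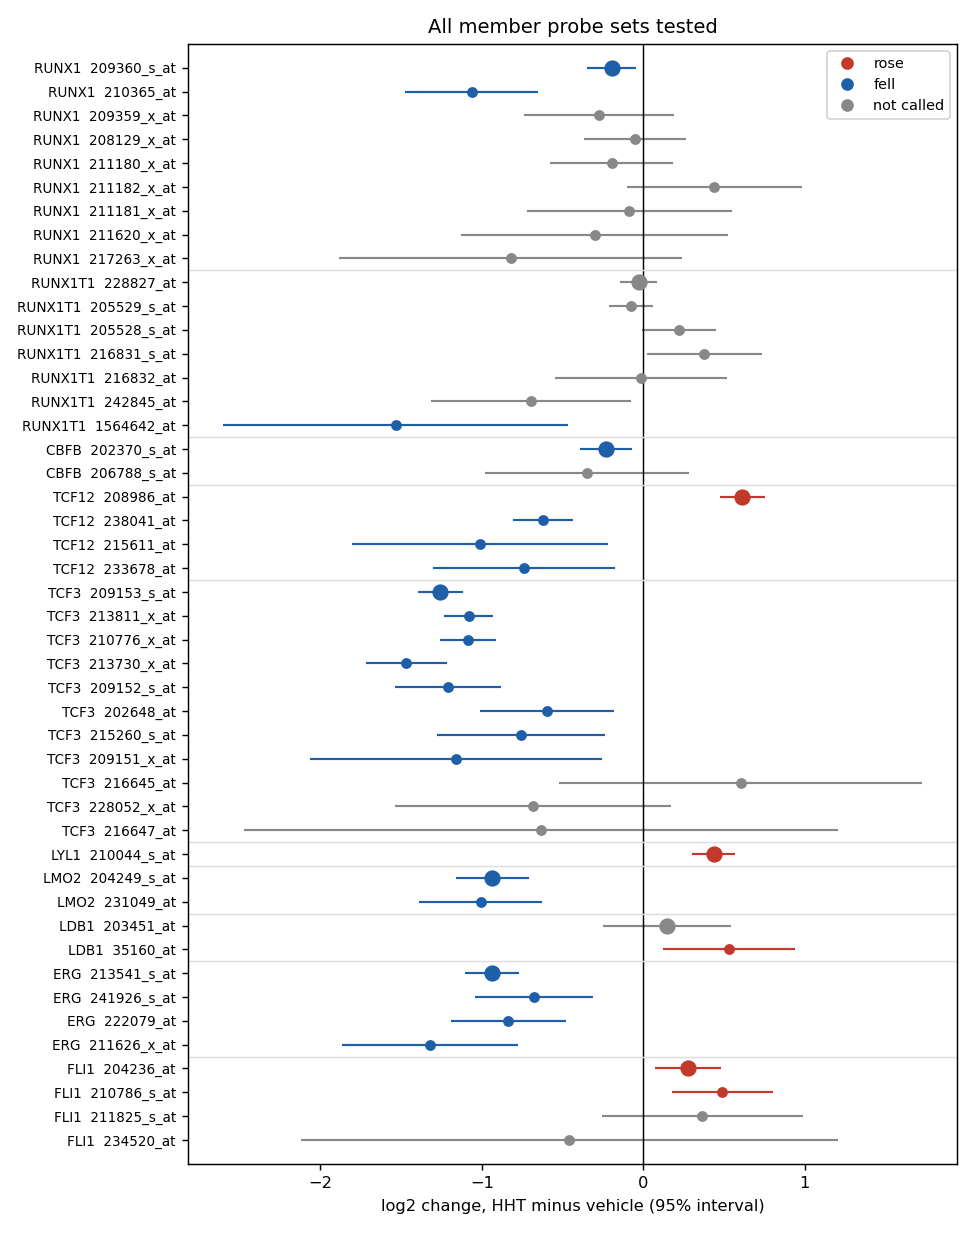
Log2 change, HHT minus vehicle, with its 95% interval from limma, for the 46 tested probe sets of the 10 genes, ordered by level within each gene (large points are the brightest). Red probe sets rose, blue ones fell and grey ones were not called; TCF3, LMO2 and ERG are blue on 8 of 11, 2 of 2 and 4 of 4 probe sets, and TCF12 has 1 red and 3 blue.

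LYL1, a helix-loop-helix factor that pairs with E-proteins, rose on its only probe set. 210044_s_at read 13.36, 13.18 and 13.24 in vehicle and 13.76, 13.64 and 13.70 in HHT. Every HHT array was higher, and the change was 0.44 (SE 0.0600, adjusted p = 0.000141), or 0.68 to 0.75 under the other scalings. Its promoter is the stretch with TGATAA above.

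LMO2, which links the DNA-binding partners without binding DNA, fell on both of its probe sets. 204249_s_at read 12.26, 11.97 and 11.83 in vehicle and 11.02, 11.06 and 11.18 in HHT, a change of -0.94 (SE 0.102, adjusted p = 2.60e-05). 231049_at went from 9.63, 9.12 and 9.06 to 8.49, 8.05 and 8.24, a change of -1.01 (SE 0.171, adjusted p = 0.000637). Neither overlapped, and both kept an adjusted p under 0.05 in every alternative fit, at -0.65 and -0.72 with equal hybridisation controls. The change of the first is below 1, so it does not count where a log2 change of at least 1 is required.

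LDB1, the dimerising protein that LMO2 binds, was dim and gave a weaker reading. 203451_at read 7.83, 7.39 and 7.48 in vehicle and 7.81, 7.82 and 7.52 in HHT. The groups overlap, with a change of 0.15 (SE 0.179, 95% interval -0.25 to 0.55, adjusted p = 0.529). 35160_at read 7.29, 7.05 and 7.20 against 7.92, 7.45 and 7.76 and rose by 0.53 (SE 0.185, adjusted p = 0.0374). It was no longer called once vehicle replicate 2, vehicle replicate 3, HHT replicate 1 or HHT replicate 3 was taken out (0.42 to 0.54, adjusted p from 0.0654 to 0.132) and with no filter (adjusted p = 0.0604).

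ERG, an ETS factor active in blood stem cells, fell on all 4 of its probe sets. The brightest, 213541_s_at, read 11.75, 11.94 and 11.80 in vehicle and 10.98, 10.90 and 10.80 in HHT, a change of -0.94 (SE 0.0751, adjusted p = 2.98e-06). 241926_s_at read 10.13, 10.23 and 10.52 against 9.21, 9.76 and 9.87 and changed by -0.68 (adjusted p = 0.00594). With equal medians this call was lost (-0.44, adjusted p = 0.105), as it was without a variance trend (adjusted p = 0.0501). 222079_at read 7.90, 7.79 and 7.97 against 7.07, 7.10 and 6.98, a change of -0.84 (SE 0.161, adjusted p = 0.00145). 211626_x_at read 7.24, 7.70 and 7.37 against 6.35, 6.20 and 5.79, a change of -1.32 (SE 0.245, adjusted p = 0.00115). No ERG probe set overlapped between the groups. RefSeq lists several starts for ERG, of which 2 are printed above, and these probe sets are not tied to a start here.

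FLI1, the closest relative of ERG among the members, went the other way and by less. 204236_at read 11.77, 12.16 and 12.04 in vehicle and 12.35, 12.26 and 12.19 in HHT, a change of 0.28 (SE 0.0928, adjusted p = 0.0309). 210786_s_at read 9.93, 9.54 and 9.84 against 10.03, 10.21 and 10.55, a change of 0.49 (SE 0.141, adjusted p = 0.0152). The groups lie just apart in both. The first call needed vehicle replicate 1, HHT replicate 1 and HHT replicate 2 (without each in turn, 0.17 to 0.28, adjusted p from 0.0722 to 0.0979) and the mean of the tested FLI1 probe sets was not called (0.17, adjusted p = 0.390). The second was lost without vehicle replicate 2 or HHT replicate 3 (adjusted p = 0.0637 and 0.0588) and after quantile normalization (adjusted p = 0.0526), and neither was called without a variance trend.

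The dimmer FLI1 probe sets were mixed. 211825_s_at differed by 0.37 (adjusted p = 0.315) and was called without vehicle replicate 3 (0.68, adjusted p = 0.0462), and 234520_at differed by -0.46 (adjusted p = 0.650). Below the filter and untested, 234614_at read 5.08, 4.81 and 5.21 in vehicle and 3.09, 2.39 and 2.89 in HHT, and 237722_at read 5.52, 4.94 and 4.39 against 4.97, 2.64 and 2.95. Both lie near or below the filter level, and neither was higher on the HHT arrays as the bright FLI1 probe sets were.

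Because small changes moved with the scaling, members were also compared on the same array, where an array's overall scale cancels. For each of 4 pairs, chosen after the values were seen, the log2 signal of 1 brightest probe set minus that of the other was formed on every array. Only its shift between groups has a meaning, as probe sets differ in brightness. TCF12 minus TCF3 was 0.62, 0.82 and 0.77 in vehicle and 2.62, 2.69 and 2.51 in HHT, a shift of 1.87. FLI1 minus ERG was 0.023, 0.21 and 0.24 against 1.38, 1.35 and 1.39, a shift of 1.22. LYL1 minus LMO2 was 1.10, 1.21 and 1.41 against 2.74, 2.58 and 2.53, a shift of 1.37. In these 3 pairs every HHT array lay more than 1 unit above every vehicle array.

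The pair of fused genes had a smaller shift. RUNX1T1 minus RUNX1 was 1.34, 1.37 and 1.38 in vehicle and 1.52, 1.47 and 1.60 in HHT, a shift of 0.17 towards RUNX1T1 without overlap. The pairs were picked with their members' directions known, so the shifts are a description and no test is given. After quantile normalization, which does not cancel in this way, a setting also chosen after the values were seen, the shifts were 2.14 (TCF12 minus TCF3), 1.31 (FLI1 minus ERG), 1.71 (LYL1 minus LMO2) and 0.45 (RUNX1T1 minus RUNX1). These are shifts between probe sets, and the TCF12 one uses its rising probe set.

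**Figure D3:**
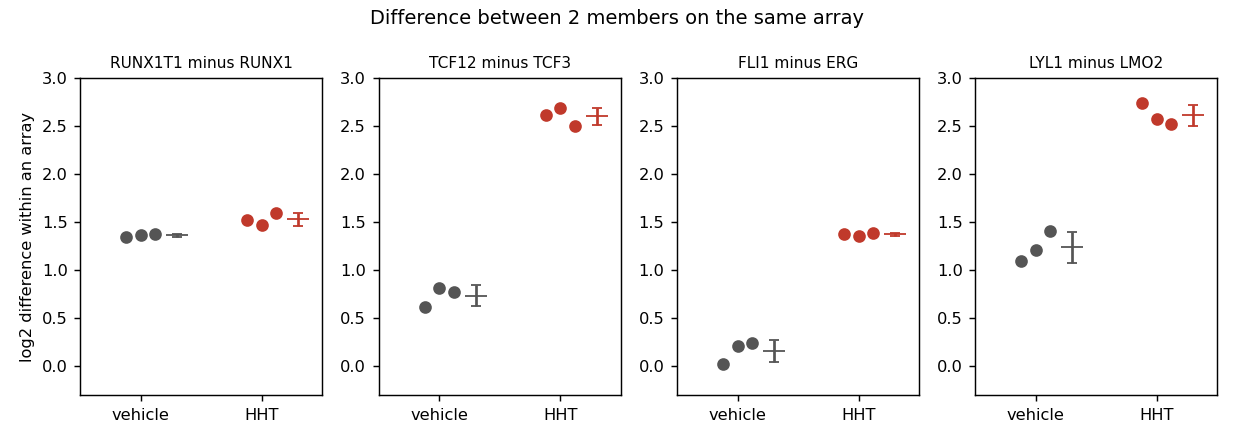
Difference in log2 signal between the brightest probe sets of 2 members on the same array, for vehicle (grey) and HHT (red), with mean and SD. The shift from vehicle to HHT is 0.17 for RUNX1T1 minus RUNX1, 1.87 for TCF12 minus TCF3, 1.22 for FLI1 minus ERG and 1.37 for LYL1 minus LMO2; the height of each panel's points depends on the probe sets.

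**Figure D4:**
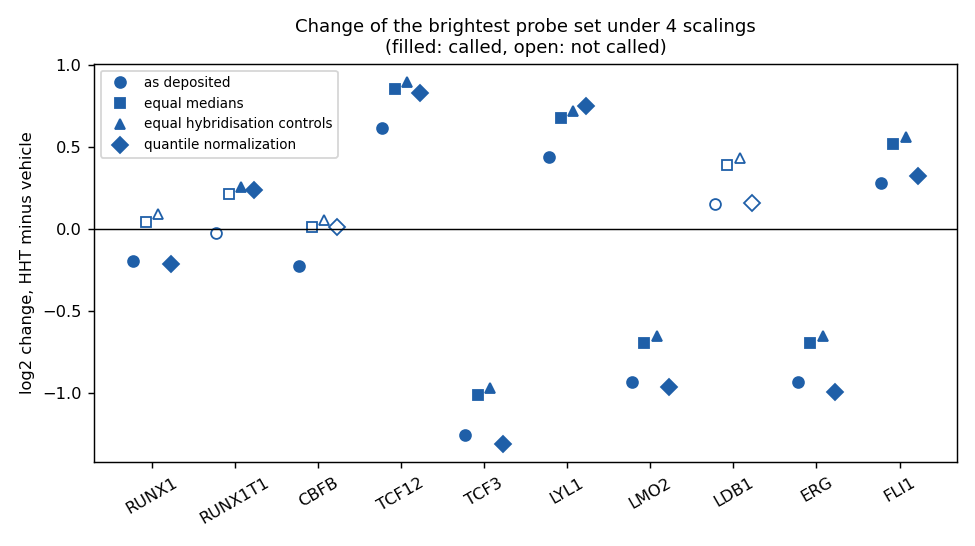
Log2 change of each member's brightest probe set as deposited (circles), with equal medians (squares), equal hybridisation controls (triangles) and quantile normalization (diamonds), filled where called. TCF3, LMO2 and ERG stay below 0 and TCF12, LYL1 and FLI1 above 0 under all 4, while RUNX1, RUNX1T1 and CBFB change sign.

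The genes around the complex were followed through 6 lists, each gene by its brightest probe set, where 29.6% of all genes rose and 24.2% fell. Among corepressors and coactivators of the fusion, 4 of 13 tested rose and 6 fell, with a median of 0.02. The acetyltransferases CREBBP and EP300 rose by 1.81 (SE 0.102, adjusted p = 3.18e-07) and 1.15 (SE 0.0894, adjusted p = 2.47e-06). Of the 2 other tested CREBBP probe sets 1 rose and 1 was not called, and the mean of its probe sets was 1.32 (adjusted p = 0.00132). SIN3A, the scaffold of a histone deacetylase complex, fell by 1.12 (SE 0.0875, adjusted p = 2.55e-06), and so did its 2 other probe sets. Under the equal-median scaling 1 of the list fell, and under the equal-control scaling 3. Of 4 relatives of RUNX1 and RUNX1T1, 2 rose and the others were not called, with a median of 0.38. RUNX2 went from 12.47 ± 0.0408 (SD, n = 3) to 13.12 ± 0.0423 (SD, n = 3), and CBFA2T2 from 8.82 ± 0.141 to 9.31 ± 0.0804. The other probe set of RUNX2 was not called, nor was the mean of both (0.48, adjusted p = 0.157). Of the 4 other tested CBFA2T2 probe sets 1 rose and 3 were not called, and the mean of its probe sets was 0.72 (adjusted p = 0.0117). Without HHT replicate 1, 1 of the 4 fell.

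Among other partners of the complex (helix-loop-helix, LIM, GATA and single-stranded DNA binding proteins), 4 of 12 rose and 3 fell, with a median of 0.19. TAL1, a relative of LYL1, changed by -2.08 (SE 0.0772, adjusted p = 3.29e-08), from 11.06 ± 0.0134 to 8.98 ± 0.0572, with 1 of its other 2 probe sets called lower and 1 not called. The E-protein inhibitors ID1 and ID2 went apart, ID1 from 11.45 ± 0.105 to 9.81 ± 0.181 and ID2 from 9.81 ± 0.155 to 11.53 ± 0.193. With equal hybridisation controls 7 of these genes rose. Of 14 other ETS factors 8 rose and 3 fell, with a median of 0.40. ETV3 rose by 1.25 (SE 0.0958) and ELK4 by 0.58 (SE 0.0743), while ELK1 fell by 0.91 (SE 0.140). The other probe sets of ETV3 and ELK1 were not called. Of the other 4 of ELK4 1 rose, 1 fell and 2 were not called, and the mean of its probe sets was 0.07 (adjusted p = 0.695).

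Among genes described as raised by the fusion or high in t(8;21) leukaemia, 7 of 12 fell, 1 rose and 4 were not called as deposited, with a median of -0.47. ID1 was among those that fell. BCL2, which blocks apoptosis, fell by 1.35 (SE 0.0793, adjusted p = 3.95e-07) and on its 3 other tested probe sets. JUP, a junction protein, rose by 0.90 (SE 0.0891, adjusted p = 1.32e-05). Under each of the equal-median and equal-control scalings 4 of them fell. Of genes that RUNX1 activates or the fusion is described to repress, 6 of 14 fell and 3 rose, with a median of -0.40. MPO, the granule peroxidase, went from 14.39 ± 0.0765 to 12.63 ± 0.198, and ELANE, a granule protease, from 6.63 ± 0.117 to 5.20 ± 0.417. NF1, a brake on RAS, was higher (adjusted p = 0.00569), from a vehicle mean of 4.71 below the filter level. With vehicle values under that level raised to it, the fold was 3.05. The measured change was 2.00, with a 95% interval of 0.94 to 3.07. The probe set, the only NF1 one tested, passed the filter through the HHT arrays (mean 6.71). With the 60% filter, under which ELANE and NF1 were not tested, 3 of this list fell.

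**Figure D5:**
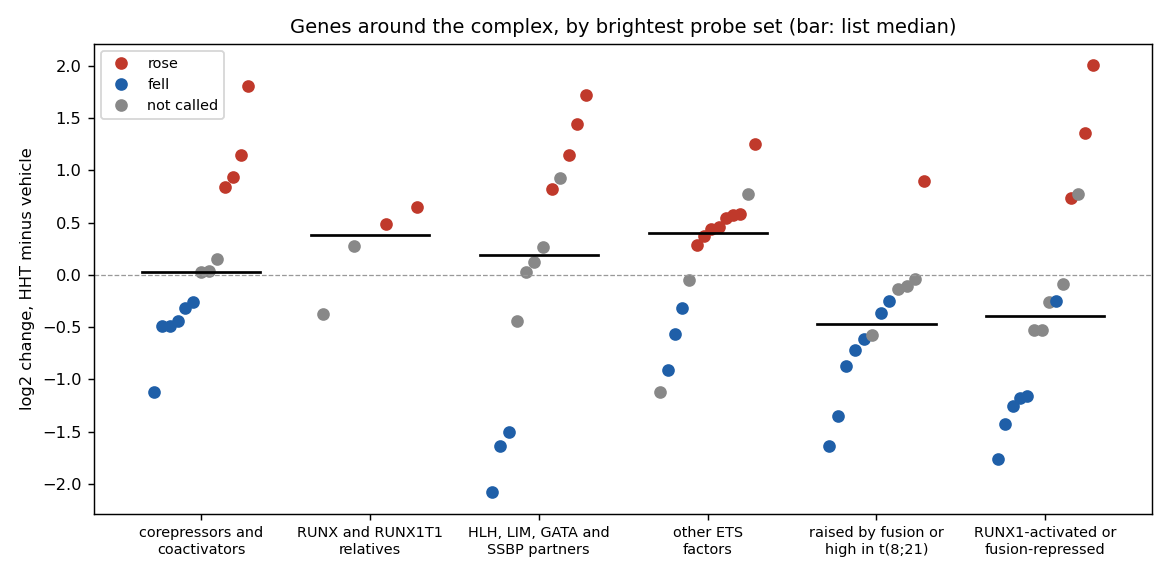
Log2 change, HHT minus vehicle, of the brightest probe set of each tested gene in the 6 lists, red where it rose, blue where it fell and grey where not called, with the list median as a bar. Medians run from -0.47 (raised by the fusion or high in t(8;21) leukaemia) to 0.40 (other ETS factors).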

How the data were processed

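The deposited values are log2 signals of 3' expression arrays, 1 per probe set. MAS5 is named without a version in the submitters' processing notes, and per the values each array was scaled by the authors to a 2% trimmed mean of the antilog signals near 500.1. No detection calls were used here. The 62 control probe sets were left out, then the 40% with the lowest mean. HHT was compared with vehicle by limma 3.58.1 in R 4.3.3 (lmFit, eBayes with a variance trend) over 32768 probe sets with Benjamini-Hochberg adjustment, without a block. Rose and fell mean an adjusted p under 0.05. Probe sets were named by the platform annotation, with symbols updated through RefSeq. RUNX1 needed probe sets with several genes. All members are named, and from each list the 3 called genes with the largest change. Folds against a mean below 4.80 were taken with values under that level raised to it. Precision is limited by the number of arrays. The members and lists were chosen with earlier results of these data known. Alternatives were a pseudocount of 64, 3 other scalings, other filters and variance trends, a change of at least 1, mean probe sets, the replicate block and leaving out each array.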

Additional observations from a re-analysis of the deposited data

How the results depend on the processing

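Of the 26 called member probe sets, 13 kept an adjusted p under 0.05 and their direction in every alternative fit. With equal medians, 8 member probe sets rose and 13 fell, 3 member genes fell, 1 corepressor or coactivator fell, and 4 genes raised by the fusion fell. With equal hybridisation controls these were 10, 13, 3, 3 and 4, and 7 other partners rose. Without a variance trend 3 member probe sets rose and 3 member genes fell. Requiring a log2 change of at least 1 left 0 member probe sets higher and 11 lower, and 0 member genes higher and 1 lower. It left 2 corepressors or coactivators higher and 1 lower, 0 relatives higher, 1 ETS factor higher and 0 lower, 0 genes raised by the fusion higher and 2 lower. Averaging each gene's probe sets gave 1 member gene higher, 1 relative higher and 1 lower, and 4 ETS factors higher. The 60% filter left 3 falls among genes that RUNX1 activates, and ELANE, which fell as reported, was not tested under it. Leaving out 1 array gave 3 to 6 member probe sets higher and 14 to 18 lower, 3 to 5 member genes lower, and 0 to 1 relative lower.

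Signs turned for these probe sets. With equal medians and equal hybridisation controls, in that order, RUNX1 209360_s_at was 0.044 and 0.088, 208129_x_at 0.19 and 0.23, 211180_x_at 0.042 and 0.087, and 211181_x_at 0.15 and 0.20. RUNX1T1 228827_at was 0.21 and 0.26, 205529_s_at 0.16 and 0.21, 216832_at 0.23 and 0.27, and CBFB 202370_s_at 0.0086 and 0.053. RUNX1 209359_x_at was 0.010 with equal hybridisation controls. Quantile normalization turned 211181_x_at (0.074), 228827_at (0.23), 205529_s_at (0.13), 216832_at (0.051) and CBFB 202370_s_at (0.012). TCF12 was -0.44 by the mean of its probe sets. Leaving out 1 array turned the sign for RUNX1 208129_x_at (-0.11 to 0.0020), 211181_x_at (-0.20 to 0.088), 216832_at (-0.19 to 0.13) and FLI1 234520_at (-1.32 to 0.10). The cause was not tested.

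The labels do not say whether the replicate number is a pairing, and 3 correlations cannot decide it. Deviations of same-numbered arrays correlated at 0.0655, -0.0141 and 0.0491. For the same vehicle arrays the highest correlation with a differently numbered HHT array was -0.0286, 0.0236 and 0.0424. With the replicate number as a block, 7 member probe sets rose and 20 fell, where 47.2% of all tested probe sets were called. RUNX1T1 205528_s_at (adjusted p = 0.0261) and 216831_s_at (0.0480) were then called and TCF12 233678_at (0.0526) was not.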
